A study of Mus musculus with 6 samples.

Results

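The genes of mitosis and of the passage from G2 into mitosis were followed in whole mouse retina with oxygen-induced retinopathy (OIR) and in normal retina, both at postnatal day 17. The set held 41 genes, taken by symbol from a table of 54532 gene IDs, and each symbol matched 1 ID. All mice were wild-type C57BL/6J. The OIR group had 3 samples and the normal group had 3. In OIR, young mice breathe extra oxygen, which makes retinal vessels die back, and abnormal vessels sprout once they breathe normal air. The schedule of oxygen, the sex of the mice and the animals per sample are not stated by the labels. Messenger RNA was measured by RNA sequencing of total RNA, and the study sought a target of hypoxia-driven retinal vessel growth.

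A dividing cell copies its chromosomes and then switches on a set of genes late in the cycle. Their products condense the chromosomes, build the spindle, attach each chromosome to it, hold back separation until all are attached, and cut the cell apart. The transcripts are made mainly in G2 and M and are low in resting cells, so they are widely used to mark dividing cells. Retinal neurons have left the cycle by this age, while endothelial cells, mural cells, glia and microglia can divide.

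Each library held 15818168 to 17163513 counts. Levels are given as CPM, counts scaled to library size with TMM factors, and standard errors (SE) belong to log2 fold changes of OIR over normal. The test was edgeR's quasi-likelihood test with Benjamini-Hochberg adjustment over all 17108 genes with enough counts, at an adjusted p of 0.05. The tissue label held in every library: 11 rod and cone markers summed to 34516 to 38810 CPM in OIR and 41872 to 44944 CPM in normal retina. By Xist and Y-linked transcripts, OIR 2, normal 1 and normal 3 were male and OIR 1, OIR 3 and normal 2 female. The mix of sexes means that each group held RNA of more than 1 animal, but libraries of the same sex may share animals. Nothing says that all replicates are separate animals, so a p-value reflects only how these samples vary, which may be partly technical. In whole tissue, more dividing cells and more RNA per dividing cell cannot be told apart.

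Of the 41 genes, 39 had enough counts to be tested; 22 were higher in OIR retina and 0 were lower, each of the 22 by at least 2-fold. Over all genes tested, 19.8% passed in either direction: 11.1% were higher, 8.73% were lower; 4.99% were higher by at least 2-fold. At an unadjusted p under 0.05 in the edgeR fit 29 members were higher and 0 lower, and DESeq2 and limma-voom each called 24 higher and 0 lower. The other 17 tested members did not pass, and 38 of the 39 log2 fold changes were positive. Their median was 1.45, against 0.01 over all genes tested. In 29 members all OIR libraries lay above all normal libraries, in 0 below; over all genes tested these shares were 18.7% and 18.1%. The count of 22 needs care, because 17 of the tested members reached the minimum of counts in all OIR libraries but not in all normal ones. Their entry into the test favoured a difference, and 16 of these passed. Of the 22 members with enough counts in all normal libraries too, 6 passed: Top2a, Anln, Foxm1, Kif11, Tpx2 and Prc1. The counts by role that follow hold members of both kinds and describe the roles only.

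**Figure D1:**
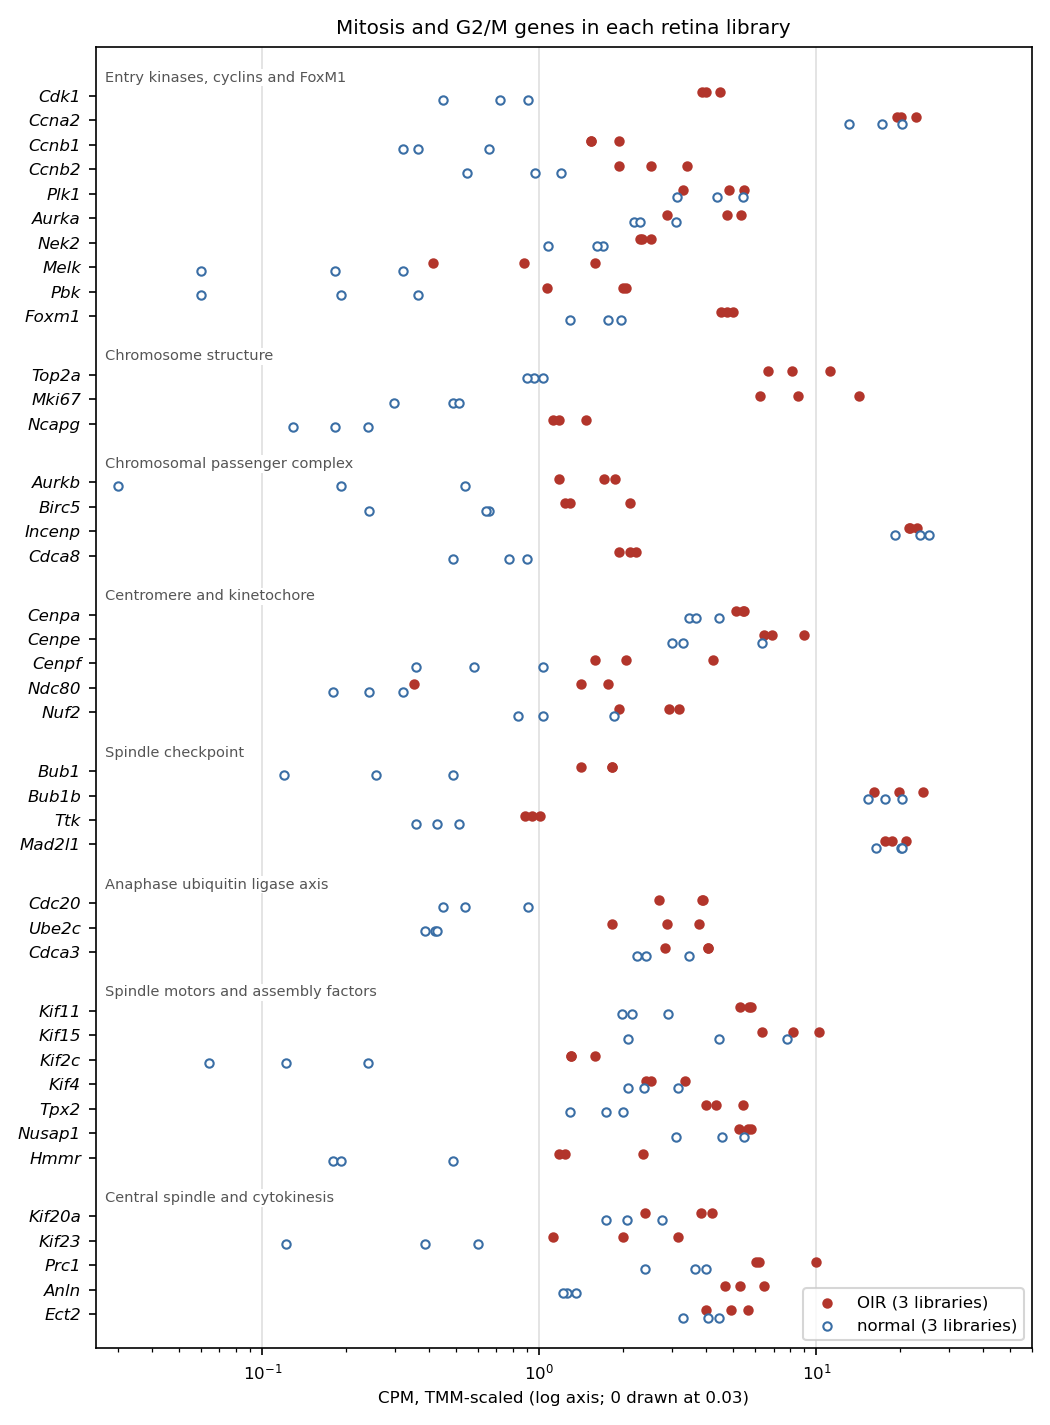
Level of each of the 41 genes in each library, as TMM-scaled CPM on a log axis, grouped by role; filled points are the 3 OIR libraries and open points the 3 normal libraries. Points of the groups lie apart for 29 genes, most widely for Mki67, while Incenp, Mad2l1, Bub1b and Ccna2 lie between 13.1 and 25.4 CPM in every library; the normal library of Aurkb without a count is drawn at 0.03.

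The promoters of these genes are shown because the genes are known as a co-regulated set. Late cell cycle promoters are known to carry the CHR element (cell cycle genes homology region), which MuvB complexes bind, among them those with FoxM1, and CCAAT boxes, which bind NF-Y. Windows of 300 bases, 250 before to 50 after the start, came from RefSeq (GRCm38.p6, the same assembly as mm10) for 34 members. The search took TTTGAA on both strands and TTTAAA, which reads the same on both, as forms of the CHR, and CCAAT on both strands, with overlapping matches counted. A CHR form was found in 28 of 34 member promoters (82.4%), against 27.8% of 27025 promoters and 18.9% of 11996 promoters of tested genes. TTTGAA alone was found in 25 members (73.5%), against 18.1% of all promoters. CCAAT was found in 25 members (73.5%) and at least 2 CCAAT in 18 (52.9%), against 37.9% and 12.2% of all promoters. Both CCAAT and a CHR form stood in 23 members (67.6%), against 10.9% of all promoters. A CHR form was present in 17 of 18 promoters of members higher in OIR, all but Bub1, and in 11 of the other 16. Those 16 include Melk and Ndc80, which were not tested, and a link between motif and rise was not tested. Some windows, such as that of Kif2c, lie inside the counted gene rather than at its outermost start. The only CHR form of Birc5 was at −220. The shares describe the set, and a match is a run of letters, not a shown binding site.

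Below are the promoters of Mki67 and Top2a, both with large changes, of Cdk1 and Cdc20, which drive entry into and exit from mitosis, and of Plk1 and Mad2l1, which did not pass. Capitals mark the CHR forms and CCAAT boxes on either strand. Each is written 5′ to 3′ on the gene's own strand.
Mki67 (chr7:135716330-135716629, minus strand): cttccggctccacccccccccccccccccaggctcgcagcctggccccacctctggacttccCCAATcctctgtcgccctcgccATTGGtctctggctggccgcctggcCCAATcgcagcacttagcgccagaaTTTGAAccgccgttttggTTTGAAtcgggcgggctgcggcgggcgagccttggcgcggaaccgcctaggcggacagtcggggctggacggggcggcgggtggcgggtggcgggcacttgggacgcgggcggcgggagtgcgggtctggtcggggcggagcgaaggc
Top2a (chr11:99024140-99024439, minus strand): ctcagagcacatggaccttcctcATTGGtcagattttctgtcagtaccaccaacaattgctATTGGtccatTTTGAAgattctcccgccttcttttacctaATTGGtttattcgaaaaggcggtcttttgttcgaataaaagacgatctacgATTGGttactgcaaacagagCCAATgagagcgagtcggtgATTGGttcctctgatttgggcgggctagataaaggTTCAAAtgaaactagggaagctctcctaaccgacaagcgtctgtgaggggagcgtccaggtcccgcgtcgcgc
Cdk1 (chr10:69352863-69353162, minus strand): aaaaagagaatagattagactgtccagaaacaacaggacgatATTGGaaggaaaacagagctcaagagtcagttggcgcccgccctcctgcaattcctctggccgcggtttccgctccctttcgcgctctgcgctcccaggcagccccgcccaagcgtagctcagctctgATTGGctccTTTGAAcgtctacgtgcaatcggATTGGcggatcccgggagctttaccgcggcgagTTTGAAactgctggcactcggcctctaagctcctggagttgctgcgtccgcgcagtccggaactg
Cdc20 (chr4:118437294-118437593, minus strand): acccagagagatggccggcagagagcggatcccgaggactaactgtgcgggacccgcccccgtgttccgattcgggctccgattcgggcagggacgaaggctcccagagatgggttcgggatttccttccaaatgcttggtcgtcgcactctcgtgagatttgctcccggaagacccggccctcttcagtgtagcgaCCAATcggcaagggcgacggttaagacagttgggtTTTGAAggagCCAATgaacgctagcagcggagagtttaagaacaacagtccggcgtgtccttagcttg
Plk1 (chr7:122159185-122159484, plus strand): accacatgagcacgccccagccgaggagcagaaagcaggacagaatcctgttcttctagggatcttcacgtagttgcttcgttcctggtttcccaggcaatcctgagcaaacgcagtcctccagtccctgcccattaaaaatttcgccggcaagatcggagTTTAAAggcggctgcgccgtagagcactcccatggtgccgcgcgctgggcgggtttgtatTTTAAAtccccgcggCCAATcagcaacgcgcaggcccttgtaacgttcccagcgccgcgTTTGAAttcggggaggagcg
Mad2l1 (chr6:66534971-66535270, plus strand): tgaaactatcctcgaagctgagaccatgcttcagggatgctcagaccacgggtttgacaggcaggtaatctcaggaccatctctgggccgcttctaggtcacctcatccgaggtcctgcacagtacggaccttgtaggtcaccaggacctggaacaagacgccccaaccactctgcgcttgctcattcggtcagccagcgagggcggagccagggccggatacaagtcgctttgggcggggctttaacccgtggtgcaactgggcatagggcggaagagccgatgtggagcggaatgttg
The Top2a window held 6 CCAAT and 2 TTTGAA, and the Mki67 and Cdk1 windows 3 CCAAT and 2 TTTGAA each. The Cdc20 window held 2 CCAAT and 1 TTTGAA. Plk1 carried 1 CCAAT, 1 TTTGAA and 2 TTTAAA while its level did not pass, and the Mad2l1 window held none of them. The Mad2l1 window ends at 66535270, before the counted gene begins at 66535390, so the bases around that start were not searched.

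All 3 genes of chromosome structure rose, but Mki67 and Ncapg had too few counts in normal libraries and entered the test through OIR. The largest fold change among the tested members was that of Mki67. It encodes Ki-67, a protein that coats mitotic chromosomes and is the usual marker of cycling cells. Mki67 had 14.3, 6.25 and 8.58 CPM in OIR 1, 2 and 3, against 0.300, 0.487 and 0.514 CPM in normal 1, 2 and 3. Every OIR library was more than 10 times above every normal one, and OIR 1 stood above the other OIR libraries. The log2 fold change was 4.47 (SE 0.39; edgeR adjusted p of 2.85e-05), which is 22.1-fold. The exact two-sided permutation test of Mki67 over samples gave p = 0.1, the smallest that 3 against 3 allow. Any gene whose groups lie apart gives this value, so it adds nothing to that separation. Top2a, the topoisomerase that untangles sister chromatids, had 11.2, 6.66 and 8.17 CPM in the OIR libraries and 0.959, 1.03 and 0.900 CPM in the normal libraries. The normal libraries were close together and OIR 1 was again the highest. Its log2 fold change was 3.16 (SE 0.26), with an edgeR adjusted p of 1.98e-05. Ncapg, a condensin I subunit, had 25, 20 and 19 counts in the OIR libraries and 4, 3 and 2 counts in the normal libraries. This corresponds to a log2 fold change of 2.72 (SE 0.44; edgeR adjusted p of 0.0017), and 13.4% of its exonic bases are shared with Lcorl on the other strand. Lcorl had 38.1 ± 5.21 CPM in OIR and 28.5 ± 7.90 CPM in normal retina (mean ± SD, n = 3) and did not pass. Its part in the Ncapg counts was not tested.

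Of the kinases and cyclins that start mitosis, with the factor FoxM1, 5 of 9 tested passed. Cdk1, Ccnb1, Ccnb2 and Pbk entered the test through OIR, while Foxm1 had enough counts in all libraries. Cdk1, the kinase whose activity sets off mitosis, had 4.48, 4.01 and 3.88 CPM in OIR 1, 2 and 3 and 0.719, 0.912 and 0.450 CPM in normal 1, 2 and 3. The OIR libraries lay within 1.15-fold of each other, all above normal retina. The gain in Cdk1 was 2.55 on the log2 scale (SE 0.30; edgeR adjusted p of 0.000192). The cyclins that bind it in mitosis rose as well, Ccnb1 to 1.67 ± 0.235 CPM in OIR, against 0.448 ± 0.184 CPM in normal retina, and Ccnb2 to 2.63 ± 0.742 CPM in OIR, against 0.903 ± 0.330 CPM in normal retina (mean ± SD, n = 3). Ccnb2 no longer passed without OIR 1 (log2 fold change 1.30, edgeR adjusted p of 0.0696) or without normal 3 (1.58, edgeR adjusted p of 0.0525), and its pseudogene Ccnb2-ps held 487 counts in OIR and 515 in normal libraries, against 134 in OIR and 44 in normal libraries for Ccnb2. Foxm1, the transcription factor of the G2/M programme, had 4.54, 5.01 and 4.76 CPM in the OIR libraries and 1.98, 1.76 and 1.29 CPM in the normal libraries. Its OIR values were close together, and the log2 fold change was 1.50 (SE 0.23; edgeR adjusted p of 0.00129). Pbk, a mitotic kinase, had 34, 18 and 35 counts in the OIR libraries and 1, 6 and 3 counts in the normal libraries, with a log2 fold change of 3.01 (SE 0.54; edgeR adjusted p of 0.00288).

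Other regulators of mitotic entry did not pass. Plk1, the polo kinase that acts on the spindle poles, kinetochores and cleavage site, had 4.83, 3.30 and 5.46 CPM in the OIR libraries and 4.37, 5.41 and 3.15 CPM in the normal libraries. Its groups overlapped, with a log2 fold change of 0.07 (SE 0.26; edgeR adjusted p of 0.884), and the sign turned when the sex of each library was a covariate and without OIR 3 or normal 3. Ccna2, the cyclin of S phase and G2, had 22.9, 20.2 and 19.5 CPM in the OIR libraries and 13.1, 20.3 and 17.3 CPM in the normal libraries. Its level was high and overlapping in both groups (log2 fold change 0.30, SE 0.16; edgeR adjusted p of 0.206). Of its exonic bases 12.5% lie over Exosc9 on the other strand, which had 16.9 ± 0.762 CPM in OIR and 18.9 ± 1.15 CPM in normal retina. Aurka, the spindle pole kinase, had 4.77, 2.89 and 5.35 CPM in the OIR libraries and 3.12, 2.19 and 2.31 CPM in the normal libraries, with only OIR 2 inside the normal range. The log2 fold change was 0.77 (SE 0.28; edgeR adjusted p of 0.0775), and it passed without OIR 2 (0.98, edgeR adjusted p of 0.0334). Nek2, a centrosome kinase, had 2.30, 2.54 and 2.35 CPM in the OIR libraries and 1.08, 1.70 and 1.61 CPM in the normal libraries. The groups lay apart, but the log2 fold change of 0.71 (SE 0.28) had an edgeR adjusted p of 0.106. Melk was not tested: this kinase gene had 27, 7 and 15 counts in the OIR libraries and 1, 3 and 5 counts in the normal libraries.

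The chromosomal passenger complex corrects wrong attachments and steers cytokinesis, and 3 of its 4 members rose. All 3 had too few counts in at least 1 normal library and entered the test through OIR, and Incenp, the member with enough in all, did not pass. Aurkb, its kinase, had 29, 20 and 32 counts in OIR 1, 2 and 3 and 9, 0 and 3 counts in normal 1, 2 and 3. Normal 2 had no count, and the log2 fold change was 2.66 (SE 0.63; edgeR adjusted p of 0.0138). Birc5, or survivin, had 2.12, 1.24 and 1.29 CPM in the OIR libraries and 0.659, 0.243 and 0.643 CPM in the normal libraries, a log2 fold change of 1.58 (SE 0.44; edgeR adjusted p of 0.0273). Cdca8, or borealin, had 2.24, 2.12 and 1.94 CPM in the OIR libraries and 0.779, 0.487 and 0.900 CPM in the normal libraries, a log2 fold change of 1.53 (SE 0.33; edgeR adjusted p of 0.00794). Incenp, the scaffold of the same complex, did not pass, with 23.1, 21.5 and 21.7 CPM in the OIR libraries and 25.4, 23.7 and 19.2 CPM in the normal libraries. Incenp had a log2 fold change of −0.04 (SE 0.12; edgeR adjusted p of 0.841). Per kilobase of gene length, Incenp had 6.87 CPM in OIR and 7.08 CPM in normal retina, while Aurkb had 0.540 CPM in OIR and 0.0828 CPM in normal retina. Birc5 lost its call without OIR 1 (log2 fold change 1.28, edgeR adjusted p of 0.136), OIR 2 (1.71, adjusted p of 0.0504), normal 2 (1.24, adjusted p of 0.0712) or normal 3 (1.76, adjusted p of 0.0725), and with sex as a covariate (1.64, adjusted p of 0.0513). Aurkb lost its call without OIR 1 (2.60, edgeR adjusted p of 0.0513) or normal 3 (2.52, edgeR adjusted p of 0.0813).

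Of the kinetochore members, which link the chromosome to spindle fibres, 1 of 4 tested passed, though all 5 had groups that lay apart; the member that passed, Cenpf, entered the test through OIR. Cenpf, a large kinetochore protein of late G2, had 4.24, 1.59 and 2.06 CPM in the OIR libraries and 0.359, 1.03 and 0.579 CPM in the normal libraries, with OIR 1 above the other OIR libraries by more than 2-fold. The log2 fold change was 1.99 (SE 0.48; edgeR adjusted p of 0.0147), and it no longer passed without OIR 1 (1.46, edgeR adjusted p of 0.0784) or normal 3 (1.91, edgeR adjusted p of 0.0756). Nuf2, a subunit of the NDC80 complex, had 3.18, 2.95 and 1.94 CPM in the OIR libraries and 1.86, 1.03 and 0.836 CPM in the normal libraries. Its log2 fold change of 1.10 (SE 0.35) had an edgeR adjusted p of 0.0505, just over the threshold, and it passed in 9 of 15 alternatives, among them those without OIR 3 (1.28, adjusted p of 0.0357) and without normal 1 (1.51, adjusted p of 0.0155). Ndc80 itself was not tested, with 24, 6 and 30 counts in OIR 1, 2 and 3 and 3, 4 and 5 counts in normal 1, 2 and 3; OIR 2 was near the normal libraries. Cenpe, a kinetochore motor, had 9.02, 6.90 and 6.46 CPM in the OIR libraries and 3.30, 6.39 and 3.02 CPM in the normal libraries. Its log2 fold change was 0.81 (SE 0.27; edgeR adjusted p of 0.0625), and it passed without normal 2 (1.23, edgeR adjusted p of 0.00414), with DESeq2 (0.81, adjusted p of 0.0228) and with limma-voom (0.88, adjusted p of 0.0413). Cenpa, the centromere histone, had 5.13, 5.43 and 5.46 CPM in the OIR libraries and 3.47, 4.44 and 3.67 CPM in the normal libraries, a log2 fold change of 0.47 (SE 0.18; edgeR adjusted p of 0.105).

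The spindle checkpoint delays separation until every kinetochore is attached, and 1 of its 4 members passed, Bub1, which entered the test through OIR. Bub1, a kinase of unattached kinetochores, had 31, 31 and 24 counts in the OIR libraries and 2, 8 and 4 counts in the normal libraries, a log2 fold change of 2.52 (SE 0.45; edgeR adjusted p of 0.00303). Its paralogue Bub1b, or BubR1, had 24.3, 16.2 and 19.9 CPM in the OIR libraries and 17.7, 15.3 and 20.4 CPM in the normal libraries, with overlapping groups. The log2 fold change of Bub1b was 0.17 (SE 0.16; edgeR adjusted p of 0.505). Mad2l1, or MAD2, which BubR1 joins in the checkpoint complex, had 21.1, 18.8 and 17.6 CPM in the OIR libraries and 20.3, 16.4 and 20.4 CPM in the normal libraries. For Mad2l1 the log2 fold change was 0.01 (SE 0.13; edgeR adjusted p of 0.971), and the sign turned without OIR 1 or normal 2. Ttk, or MPS1, the kinase at the head of the checkpoint, had 15, 17 and 16 counts in the OIR libraries and 6, 7 and 8 counts in the normal libraries. Its groups lay apart, with a log2 fold change of 1.11 (SE 0.38; edgeR adjusted p of 0.0671).

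The ligase APC/C ends mitosis by marking cyclin B and securin for destruction, and 2 of 3 members tied to it rose. Both entered the test through their OIR libraries, and Cdca3, the member with enough counts in all libraries, did not pass. Cdc20, its mitotic activator, had 3.89, 2.71 and 3.88 CPM in the OIR libraries and 0.539, 0.912 and 0.450 CPM in the normal libraries, a log2 fold change of 2.44 (SE 0.34; edgeR adjusted p of 0.000622). Ube2c, the ubiquitin-conjugating enzyme it works with, had 1.83, 2.89 and 3.76 CPM in OIR 1, 2 and 3 and 0.419, 0.426 and 0.386 CPM in normal 1, 2 and 3. Here OIR 1 was the lowest OIR library, unlike Mki67 and Cenpf, and all remained above normal (log2 fold change 2.76, SE 0.39; edgeR adjusted p of 0.000665). Of the Ube2c exonic bases 22.8% are shared with Tnnc2, which had 2 counts in OIR and 0 in normal libraries. Cdca3, which promotes destruction of Wee1 at mitotic entry, had 4.07, 2.83 and 4.05 CPM in the OIR libraries and 3.47, 2.43 and 2.25 CPM in the normal libraries, with overlapping groups and a log2 fold change of 0.42 (SE 0.26; edgeR adjusted p of 0.294).

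Among spindle motors and assembly factors 4 of 7 rose. Kif2c and Hmmr entered the test through OIR, while Kif11 and Tpx2 had enough counts in all libraries. Kif2c, or MCAK, which takes apart microtubule ends, had 22, 22 and 27 counts in the OIR libraries and 4, 2 and 1 counts in the normal libraries. The Kif2c log2 fold change was 3.21 (SE 0.48; edgeR adjusted p of 0.00107), the largest after Mki67. Kif11, or Eg5, which pushes the spindle poles apart, had 5.72, 5.31 and 5.82 CPM in the OIR libraries and 2.16, 2.92 and 1.99 CPM in the normal libraries, a log2 fold change of 1.25 (SE 0.21; edgeR adjusted p of 0.00231). The OIR values of Kif11 were close together. Tpx2, which activates Aurora A on the spindle, had 5.42, 4.01 and 4.35 CPM in the OIR libraries and 1.74, 2.01 and 1.29 CPM in the normal libraries (log2 fold change 1.45, SE 0.25; edgeR adjusted p of 0.00249). Hmmr, a spindle and hyaluronan-binding protein, rose to 1.59 ± 0.665 CPM in OIR, against 0.286 ± 0.173 CPM in normal retina (SD, n = 3). Kif15, which can stand in for Kif11, had 10.2, 8.26 and 6.35 CPM in the OIR libraries and 2.10, 7.85 and 4.44 CPM in the normal libraries, where normal 2 reached into the OIR range. The log2 fold change of Kif15 was 0.79 (SE 0.36; edgeR adjusted p of 0.164), and without normal 2 it was 1.34 with an edgeR adjusted p of 0.014. Nusap1, which bundles microtubules around chromosomes, had 5.57 ± 0.296 CPM in OIR and 4.38 ± 1.19 CPM in normal retina and overlapped (log2 fold change 0.35, SE 0.22; edgeR adjusted p of 0.31). Kif4, the chromosome-arm motor, had 2.77 ± 0.508 CPM in OIR and 2.55 ± 0.552 CPM in normal retina and overlapped too. The Kif4 log2 fold change was 0.12 (SE 0.26; edgeR adjusted p of 0.795), and 15.1% of its exonic bases lie over Pdzd11, a gene with 21.0 ± 2.17 CPM in OIR and 26.7 ± 3.15 CPM in normal retina.

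Of the genes that build the central spindle and cut the cell apart, 3 of 5 rose. Kif23 entered the test through OIR, while Anln and Prc1 had enough counts in all libraries. Anln, or anillin, the scaffold of the contractile ring, had 6.48, 4.66 and 5.29 CPM in the OIR libraries and 1.26, 1.22 and 1.35 CPM in the normal libraries. All normal libraries were close to each other, and the log2 fold change was 2.10 (SE 0.24; edgeR adjusted p of 0.000159). Kif23, or MKLP1, a motor of the centralspindlin complex, had 34, 19 and 54 counts in the OIR libraries and 10, 2 and 6 counts in the normal libraries (log2 fold change 2.48, SE 0.54; edgeR adjusted p of 0.00867). Prc1, which crosslinks the midzone fibres, had 9.96, 6.07 and 6.23 CPM in the OIR libraries and 2.40, 3.65 and 3.99 CPM in the normal libraries. Of its exonic bases 11.1% lie over Rccd1, which had 8.58 ± 1.58 CPM in OIR, with OIR 1 the highest, and 8.21 ± 1.72 CPM in normal retina. For Prc1, OIR 1 was the highest, and the log2 fold change of 1.15 (SE 0.26; edgeR adjusted p of 0.01) became 0.88 with an adjusted p of 0.0528 without that library. Ect2, which activates RhoA at the cleavage site, had 5.66, 4.01 and 4.94 CPM in the OIR libraries and 3.30, 4.44 and 4.05 CPM in the normal libraries, a log2 fold change of 0.31 (SE 0.21; edgeR adjusted p of 0.35). Kif20a, or MKLP2, had 3.83, 4.19 and 2.41 CPM in the OIR libraries and 1.74, 2.07 and 2.77 CPM in the normal libraries, with overlapping groups. Its log2 fold change was 0.67 (SE 0.29; edgeR adjusted p of 0.134), and 29.3% of its exonic bases lie over Cdc23, which had 69.6 ± 3.24 CPM in OIR and 71.6 ± 2.41 CPM in normal retina.

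**Figure D2:**
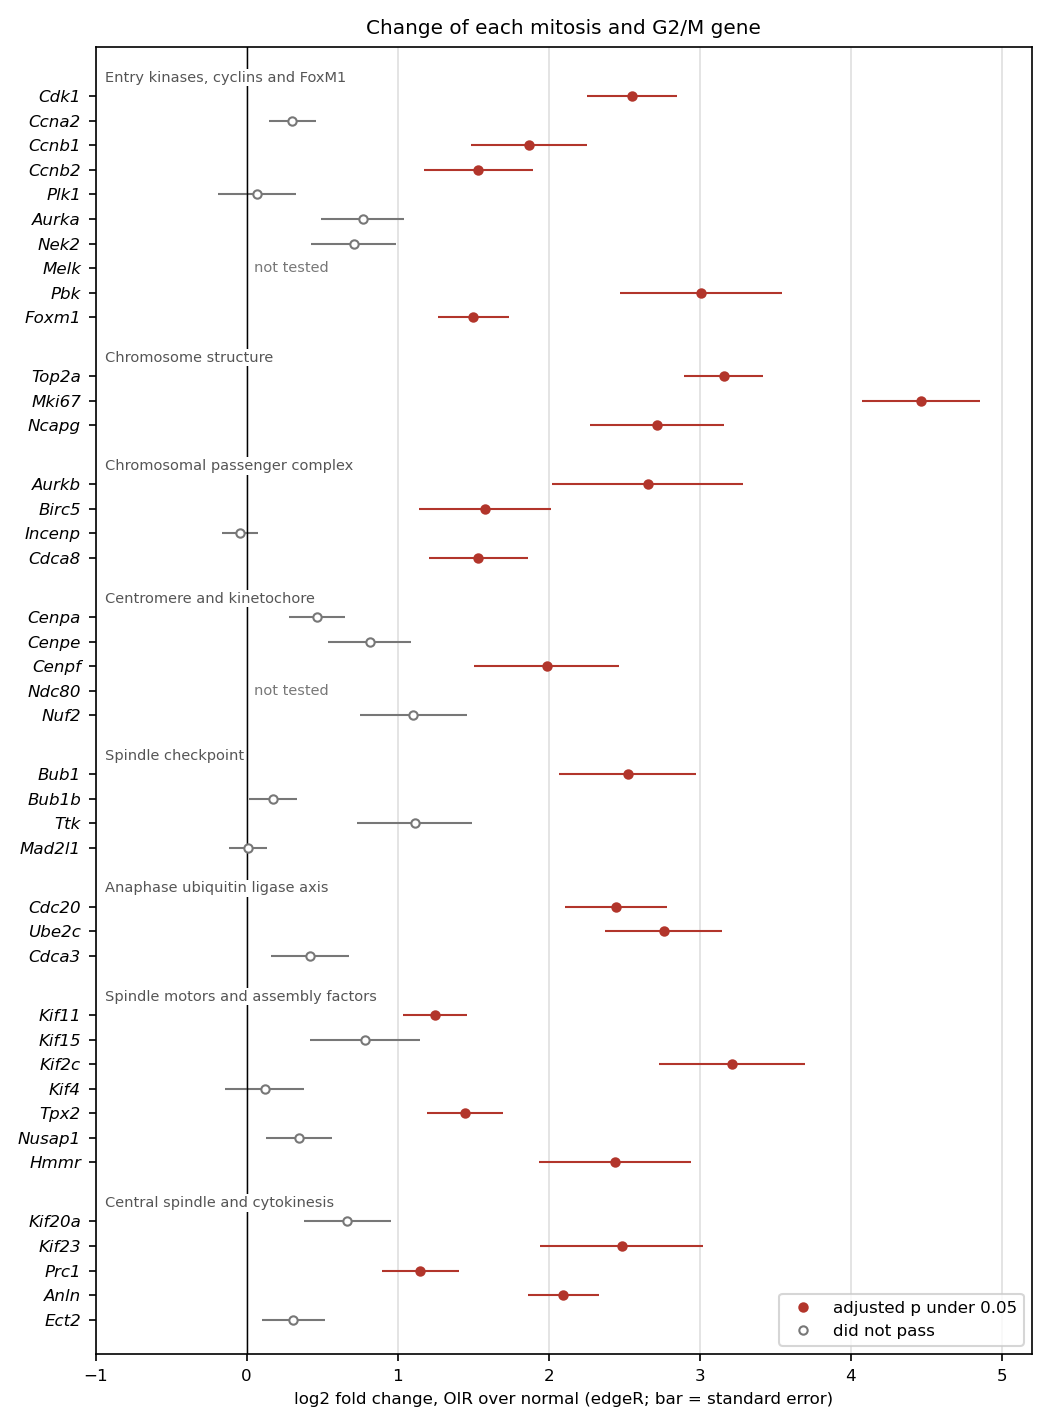
Log2 fold change of OIR over normal retina for each member, grouped by role, with its standard error as a bar; filled points passed at an adjusted p under 0.05 in the edgeR test. The 22 members that passed lie between 1.15 and 4.47.

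The members differed widely in how much transcript normal retina held. Incenp, Mad2l1, Bub1b and Ccna2 were at 10 CPM or more in normal retina and together made up 57.1% of the summed level of all 41 members there, and 37.5% in OIR retina. Their summed level was 91.4, 76.6 and 78.7 CPM in OIR 1, 2 and 3 and 76.4, 75.7 and 77.4 CPM in normal 1, 2 and 3, with a ratio of 1.07. The remaining 37 summed to 158.5, 118 and 134 CPM in the OIR libraries and 51.7, 67.2 and 53.6 CPM in the normal libraries, a ratio of 2.38. Over all 41 members the ratio was 1.64. Between genes, levels were set side by side per kilobase of gene length. In normal retina they ran from 0.0260 CPM per kilobase for Ncapg and 0.0325 for Kif2c to 7.08 for Incenp, and 11 members were under 0.1. In OIR retina the lowest were Cenpf and Ncapg, at 0.170 and 0.178 CPM per kilobase, and Incenp was again the highest, at 6.87. Mki67 and Top2a were level in OIR retina, at 0.964 and 0.963 CPM per kilobase, while in normal retina Mki67 was at 0.0431 and Top2a at 0.107.

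**Figure D3:**
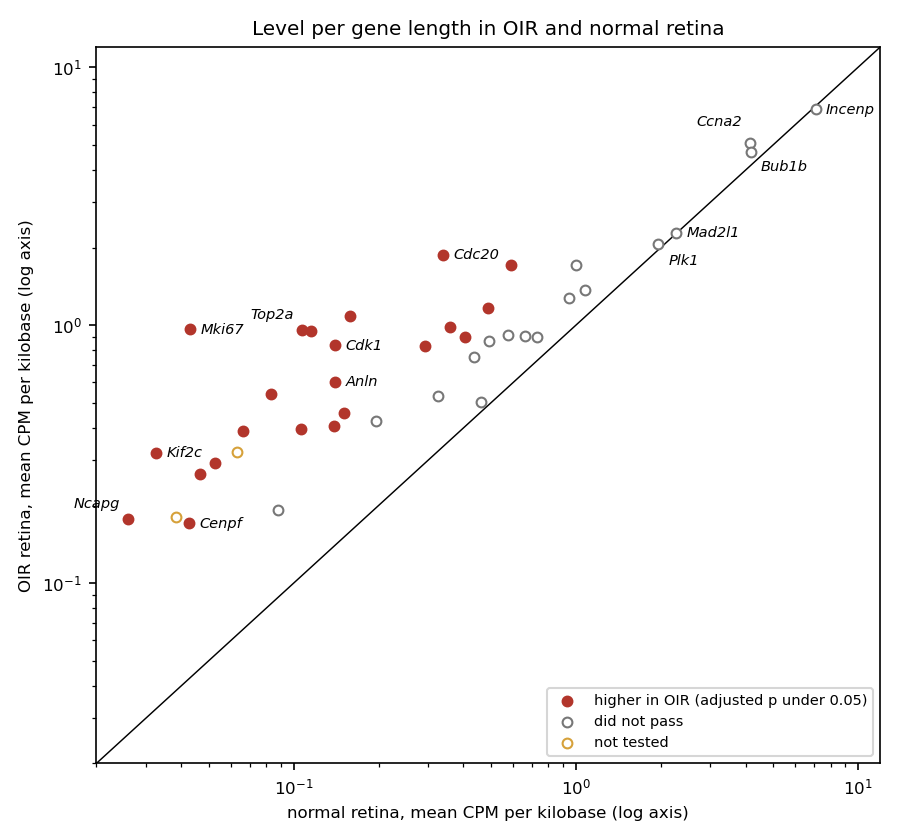
Mean level of each member per kilobase of gene length in OIR retina (vertical) and in normal retina (horizontal), both log axes in CPM per kilobase; the line marks equal levels. Members under 0.1 in normal retina lie well above the line, and Incenp, Bub1b, Ccna2, Mad2l1 and Plk1, at the upper right, lie near it.

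The OIR libraries were not alike in these genes. All members together summed to 249.9 CPM in OIR 1 (95% Poisson interval 242 to 258), 194.7 CPM in OIR 2 (188 to 201) and 213 CPM in OIR 3 (206 to 220), against 128, 143 and 131 CPM in normal 1, 2 and 3; these intervals cover counting error only. OIR 1 was thus 1.28-fold above OIR 2, with intervals that did not overlap, and the normal libraries differed by up to 1.12-fold. The intervals of normal 1 (123 to 134) and normal 2 (137 to 149) did not overlap either. For the 37 members under 10 CPM in normal retina, the highest library was 1.34-fold above the lowest in OIR and 1.30-fold in normal retina. For these 37 a spread of that size was thus not particular to OIR. For Mki67 alone the intervals were 12.5 to 16.2 CPM in OIR 1, 5.12 to 7.56 CPM in OIR 2 and 7.24 to 10.1 CPM in OIR 3, and OIR 1 was 2.28-fold above OIR 2. Of the 22 members higher in OIR, OIR 1 was the highest OIR library in 13, OIR 3 in 7 and OIR 2 in 2, while OIR 2 was the lowest in 14. Among all genes higher in OIR retina the order was another one: OIR 2 was the highest in 44.8% of them and the lowest in 26.5%. OIR 1 exceeded OIR 2 in 17 of the 22 members, against 42.9% of all genes higher in OIR and 49.4% of all genes tested. OIR 3 exceeded OIR 2 in 17 as well, against 38.8% of all genes higher in OIR and 49.5% of all genes tested. OIR 1 exceeded OIR 3 in 14. Members measured in the same library share its depth and cells, so these counts are not independent of each other. The median SD of log2 CPM over the tested members was 0.25 in OIR and 0.33 in normal libraries, against 0.12 in OIR and 0.16 in normal libraries over all genes tested. The members were low in counts, with a median of 3.49 CPM in OIR and 1.24 CPM in normal retina. Genes of like level were not set beside them, so whether low counts account for the wider spread was not tested. The widest OIR ranges among members that rose were those of Kif23, 2.83-fold, with OIR 3 the highest, and Cenpf, 2.67-fold, with OIR 1 the highest. The narrowest were those of Kif11 and Foxm1, both 1.10-fold.

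**Figure D4:**
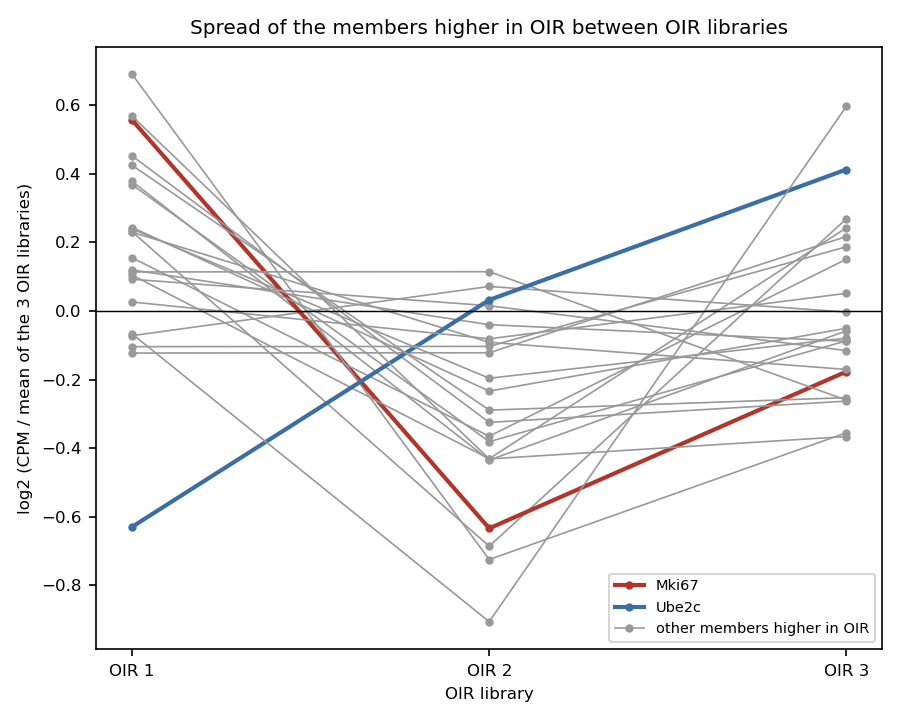
Level of each of the 22 members higher in OIR in every OIR library, as log2 of its CPM over its mean in the 3 OIR libraries; each line joins the values of the same gene, and the libraries have no order. Most lines dip at OIR 2, Mki67 among them, while Ube2c is lowest in OIR 1.

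Markers of other cell types were read in the same libraries, and their part in the change or the spread was not tested. The counts of markers higher or lower stand beside 11.1% higher and 8.73% lower over all genes tested. How many markers entered the test through OIR alone was not counted. Endothelial markers summed to 955, 894 and 965 CPM in OIR 1, 2 and 3, with OIR 2 the lowest, and 542 to 629 CPM in normal libraries. Of the 17, 13 were higher. Microglia and macrophage markers summed to 192, 144 and 172 CPM in OIR 1, 2 and 3, the same order of libraries as the mitosis genes, and 77.4 to 92.9 CPM in normal libraries; 10 of 14 were higher. Pericyte and mural markers summed to 787 to 874 CPM in OIR, with OIR 1 the lowest, and 263 to 303 CPM in normal retina; 9 of 10 were higher. Astrocyte markers summed to 308 to 390 CPM in OIR and 74.2 to 85.1 CPM in normal retina, and 3 of 6 were higher and 1 lower. Müller glia markers summed to 3657 to 4403 CPM in OIR and 4871 to 5703 CPM in normal retina, with 1 of 10 higher and 6 lower, and retinal progenitor markers to 380 to 420 CPM in OIR and 462 to 497 CPM in normal retina, with 2 of 7 tested higher and 3 lower. Lens markers summed to 129, 427 and 6309 CPM in OIR 1, 2 and 3 and 41.8 to 432 CPM in normal libraries, with 0 of 10 called by edgeR, DESeq2 or limma-voom and 8 higher at an unadjusted p under 0.05 in edgeR (DESeq2 gave 3 of the 10 no adjusted p). OIR 1, the highest library for the mitosis genes, was the lowest OIR library for lens. Without OIR 3, 23 members were higher, the 22 among them, but the part of lens tissue was not tested by this. Erythroid markers were at 175 to 209.9 CPM in OIR and 60.3 to 90.3 CPM in normal retina (4 of 5 higher), and pigment epithelium markers at 88.6 to 107 CPM in OIR and 135 to 248 CPM in normal retina (3 of 6 lower). Lymphocyte markers held 47 counts in OIR and 16 in normal libraries, neutrophil markers 27 in OIR and 10 in normal libraries, with Ly6g at 0 in all, and corneal markers 35 in OIR and 92 in normal libraries.

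Within male libraries all 41 members summed to 194.7 CPM in OIR 2 and a mean of 129.6 CPM in normal 1 and 3, a ratio of 1.50, and within female libraries to a mean of 232 CPM in OIR 1 and 3 and 143 CPM in normal 2, a ratio of 1.62. For the 4 abundant members the ratio was 0.996 in males and 1.12 in females. Within male libraries the 37 members under 10 CPM summed to 118 CPM in OIR 2 and a mean of 52.7 CPM in normal 1 and 3, a ratio of 2.24. Within female libraries they averaged 146 CPM in OIR 1 and 3 and 67.2 CPM in normal 2, a ratio of 2.18. With sex as a covariate 21 of the 22 members remained higher, Birc5 being the exception. OIR 2 was the only male OIR library, so its sex and its low values cannot be told apart.

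**Figure D5:**
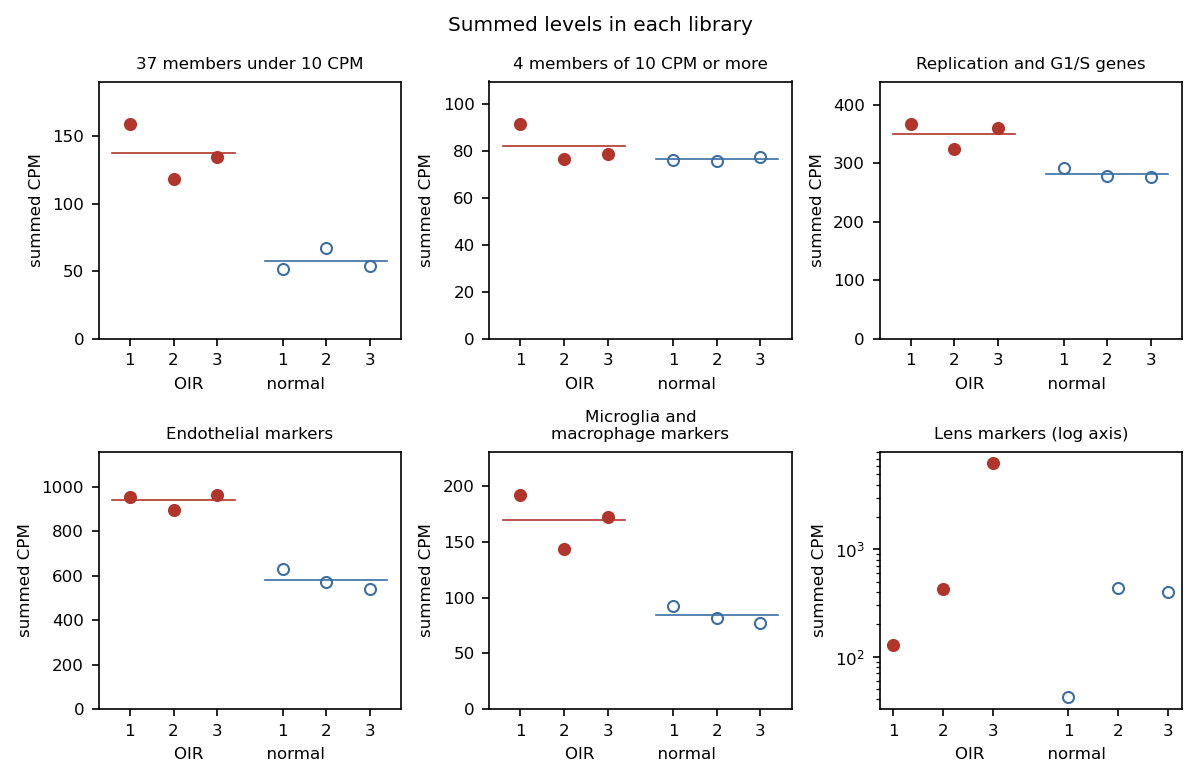
Summed CPM in each library of 37 mitosis genes, of the 4 abundant ones, of replication genes and of 3 marker lists; filled points are OIR 1 to 3, open points normal 1 to 3, lines the group means except for lens, whose axis is logarithmic. The 37 members and the replication genes lie apart between the groups, and the lens markers peak in OIR 3 alone.

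Other genes of mitosis, 106 in 4 lists that hold none of the 41 members, were read in the same fit. The same minimum of counts applied to them and to the replication genes below, so some could enter the test through OIR alone. How many of those that rose did so was not counted. Of 94 tested, 25 rose and 4 fell, where 11.1% and 8.73% of all genes tested were higher and lower. The median log2 fold change of the 94 was 0.19. Without OIR 1, 13 rose and 2 fell, and without normal 3, 15 rose and 2 fell. Calls over all genes dropped too, from 1901 higher to 1328 without OIR 1 and 1237 without normal 3. Those lower dropped from 1493 to 761 and 769. Of spindle and cytokinesis genes 10 of 23 tested rose, and 1, Knstrn, fell. Among them Cep55, which recruits the abscission machinery, had 1.53 ± 0.120 CPM in OIR and 0.205 ± 0.0335 CPM in normal retina (SD, n = 3), a log2 fold change of 2.85 (edgeR adjusted p of 0.000702). The normal level of Cep55 was under the minimum of 0.602 CPM, so it entered the test through OIR. Iqgap3 had 7.67 ± 0.487 CPM in OIR and 3.44 ± 0.592 CPM in normal retina (log2 fold change 1.16; edgeR adjusted p of 0.00139). Depdc1a had 45 counts in OIR and 2 in normal libraries, a ratio of 21.5 with a 95% Clopper-Pearson counting interval of 5.62 to 183. That interval pools the reads of each group and leaves out the spread between libraries. Like Cep55, Depdc1a entered the test through OIR. Of the condensin, cohesin and separase genes 4 of 17 tested rose, all of them condensin subunits, and 0 fell in the edgeR test, against 1 at an unadjusted p under 0.05, 1 by DESeq2 and 0 by limma-voom. The condensin core gene Smc4 had 38.2 ± 4.64 CPM in OIR and 19.5 ± 7.03 CPM in normal retina, and Smc2, its partner, 9.93 ± 2.12 CPM in OIR and 5.59 ± 1.52 CPM in normal retina. Ncapg2, of condensin II, rose by 0.61 on the log2 scale.

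Kinetochore and centromere genes outside the set were higher in 6 of 29 tested and lower in 2, where 11.1% and 8.73% of all genes tested were higher and lower. Spc25, which sits in the NDC80 complex beside Ndc80 and Nuf2, fell to 38.4 ± 8.79 CPM in OIR retina, against 96.8 ± 5.58 CPM in normal retina (SD, n = 3). The log2 fold change of Spc25 was −1.33 (SE 0.14; edgeR adjusted p of 7.96e-05). Zwint, a kinetochore gene, fell to 326 ± 20.4 CPM in OIR, against 413 ± 41.4 CPM in normal retina. Zwint and Knstrn were named after their values were seen. Cenpp rose by 1.86 (edgeR adjusted p of 0.00448) and Zwilch by 1.16 (edgeR adjusted p of 0.00847), both as log2 fold changes. Of other M-phase regulators 5 of 25 tested rose and 1 fell. Cks1b and Cks2, the small partners of Cdk1, had log2 fold changes of 1.14 (edgeR adjusted p of 0.00728) and 0.90 (edgeR adjusted p of 0.0159). Lin52, a MuvB subunit, fell to 24.8 ± 1.77 CPM in OIR, against 33.1 ± 0.808 CPM in normal retina (log2 fold change −0.41; edgeR adjusted p of 0.00866).

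Replication and G1/S genes, which act earlier in the cycle, rose in 10 of 36 cases and fell in 0 (16 and 0 at an unadjusted p under 0.05, 11 and 0 by DESeq2, 10 and 0 by limma-voom), with a median log2 fold change of 0.39. Of all genes tested, 11.1% were higher and 8.73% lower. The replication and G1/S genes summed to 366, 325 and 360 CPM in OIR 1, 2 and 3 and 276 to 291 CPM in normal libraries, with OIR 2 again the lowest OIR library. Mcm6 and Mcm3, subunits of the replicative helicase, had log2 fold changes of 1.15 (edgeR adjusted p of 0.000218) and 1.81 (edgeR adjusted p of 0.000544). Uhrf1, which helps maintain DNA methylation at the fork, had one of 2.22 (edgeR adjusted p of 0.000876). Without OIR 1, 6 of the replication and G1/S genes rose, and without normal 3, 5, where calls over all genes dropped as well.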

How the data were processed

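RNA from 6 retina samples was isolated with TRIzol and made into libraries with the NEBNext Ultra RNA kit, per the labels' protocols. The authors deposited whole-number read counts per gene with a gene length; CASAVA 1.8, fastp, HISAT2 2.0.5, featureCounts 1.5.0-p3, DESeq2 1.20.0 and mm10 are named in the submitters' processing notes. No source used here gives the annotation release, strand setting or filters, so reads over exons shared by opposite strands may not be told apart; shared exonic bases were measured in GENCODE vM21. Groups came from the sample titles.

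Counts were tested with edgeR 4.0.16 in R 4.3.3: filterByExpr with a minimum count of 10, which left 17108 genes, TMM scaling, quasi-likelihood fit, Benjamini-Hochberg adjustment. Every pair of replicates differed by more than sampling noise, with a chi-square of 7.20 to 23.1 per degree of freedom. The SD of log2 CPM used a prior count of 2. The test was checked on simulated counts. Alternatives were RLE factors, library totals, other filters, DESeq2 1.42.0, limma-voom (limma 3.58.1), a replicate block, sex as a covariate, an adjusted p of 0.01 and leaving out each library; dropping the 4 abundant members was added after seeing the data. The members and lists were chosen with earlier results of these data known. Every member could be named; full values went to the 3 smallest adjusted p per role and to each member that did not pass or was not tested, and in other lists to the 3 smallest adjusted p. Promoters are RefSeq windows, 1 per gene.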

Additional observations from a re-analysis of the deposited data

How the results depend on the processing

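The count of mitosis genes higher in OIR was 22 and stayed between 17 (without OIR 1, and at an adjusted p of 0.01) and 28 (no filter on low counts); 0 were lower in all 15 alternatives. Of the 22, 17 were higher in all 15. Leaving out each library in turn gave 17 to 24 mitosis genes, 13 to 28 higher and 2 to 6 lower among the other mitosis genes, 5 to 9 replication genes, and 1237 to 2097 higher and 761 to 1734 lower among all genes tested. At an adjusted p of 0.01 these other counts were 12 and 2, 5, and 1116 and 647. The summed level of the members was 1.64-fold, 2.12-fold without the 3 members with most counts, 2.38-fold without the 4 abundant ones, and 1.52-fold to 1.73-fold without each library. The spread between OIR libraries was 1.28-fold and became 1.09-fold to 1.28-fold without 1 of them, lowest without OIR 1. Signs turned for 4 members that did not pass. Log2 fold changes without each library ran from −0.11 to 0.26 for Plk1 (below 0 without OIR 3 and without normal 3; −0.13 with sex as a covariate), from −0.15 to 0.0423 for Incenp (above 0 without normal 1; 0.00107 with library totals), from −0.0892 to 0.0613 for Mad2l1 (below 0 without OIR 1 and without normal 2) and from −0.0537 to 0.30 for Kif4 (below 0 without OIR 3 and without normal 1). The causes were not tested. Deviations of same-numbered libraries had correlations of 0.0612, −0.164 and 0.0740, and those of the other pairs ran from −0.184 to 0.0977. With 3 libraries per group this cannot show whether the numbers pair the samples, and the labels do not say. With the replicate block 23 members were higher, the 22 among them, and all-gene counts were 1680 higher and 1166 lower. Low counts limit members such as Melk and Ndc80. With no filter on low counts all 41 members were tested and 28 were higher, Melk and Ndc80 among them. Without OIR 2 all 41 were tested too and 24 were higher, again with both. Leaving out any of the normal libraries also let Melk and Ndc80 into the test, and there neither passed.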
